A study of Mus musculus with 6 samples.

Results

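RNA captured with the probe TH59-DB was compared with RNA captured with its masked form in MEL cells, a mouse erythroleukemia line. The comparison takes 4 of the 6 sequenced libraries, chosen by their titles: 2 of TH59-DB capture and 2 of masked TH59-DB capture. The remaining 2 libraries hold the input chromatin of the same cells. All 6 share the cell line, given as C57BL/6 by strain, the fixation with 3.7% formaldehyde for 30 min, the chromatin preparation and a stranded total RNA library kit, and the labels name no genetic change or drug treatment. The labels name the masked probe as the negative control. Libraries without a number in their title are called number 1 here, and nothing says whether numbers 1 and 2 came from separate cultures, so the p-values measure only the spread between these libraries.

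Telomeres are the repeat-capped ends of chromosomes, and in mouse they carry the hexamer TTAGGG in long arrays. Telomerase extends them by copying a template within its own RNA subunit, Terc, and telomeres are also transcribed into the long noncoding RNA TERRA, whose transcription starts in the subtelomere. Pyrrole-imidazole polyamides are small molecules that bind the minor groove of DNA in a sequence-dependent way, and the study used them to isolate chromatin of a chosen region together with its RNA (PI-PRICh).

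Reads had been counted by the submitters over 7959 assembled transcript models, which overlapping exons join into 7853 loci. The libraries comprised between 1803723 and 3122558 reads, of which the models accounted for 35.7% to 69.2%. A single read was worth 0.320 to 0.554 CPM, that is, reads per 1000000 of the library total. The libraries of a group differed in composition. TH59-DB 1 had at least 5 reads in every model, whereas masked TH59-DB 1 had 0 reads in 4341 models, and 1 model in the span of Zc3h7a held 50.8% of masked TH59-DB 1, 13.4% of masked TH59-DB 2, 20.8% of TH59-DB 1 and 2.77% of TH59-DB 2. Whether the models were picked with the help of TH59-DB 1 is not given in the sources used here. The part of these differences in the results below was not tested. Models of 13 of 23 erythroid genes were found, among them Gata1, Klf1 and Epor. None of 6 fibroblast, endothelial and epithelial markers had a model, and Laptm5 and Itga2b were the 2 of 15 markers of other blood cells that did.

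Captured RNA was higher with TH59-DB at 64 loci, led in read share by Terc, and lower at none. Of 5385 models with enough reads to be tested, 76 (1.41%) passed as higher and 0 (0%) as lower in edgeR's quasi-likelihood test with Benjamini-Hochberg adjustment at 0.05. At an unadjusted p under 0.05 the same test gave 445 higher and 91 lower, and DESeq2 gave 266 and 1 after adjustment. Every model had at least 5 reads in TH59-DB 1. RNA absent from that library thus had no model and could not pass as lower, so the counts of higher and lower are not on equal terms. The 64 loci together took 0.0254% of the reads of masked TH59-DB 1 and 0.0278% of masked TH59-DB 2, against 4.21% of TH59-DB 1 and 3.89% of TH59-DB 2. In the input they took 0.00767% and 0.0220%. The loci were picked with the same capture libraries, so the gap between TH59-DB and masked TH59-DB restates that choice. Without Terc the shares in TH59-DB were 1.07% and 2.49%, so the remaining 63 loci took a larger share of TH59-DB 2 than of TH59-DB 1.

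**Figure D1:**
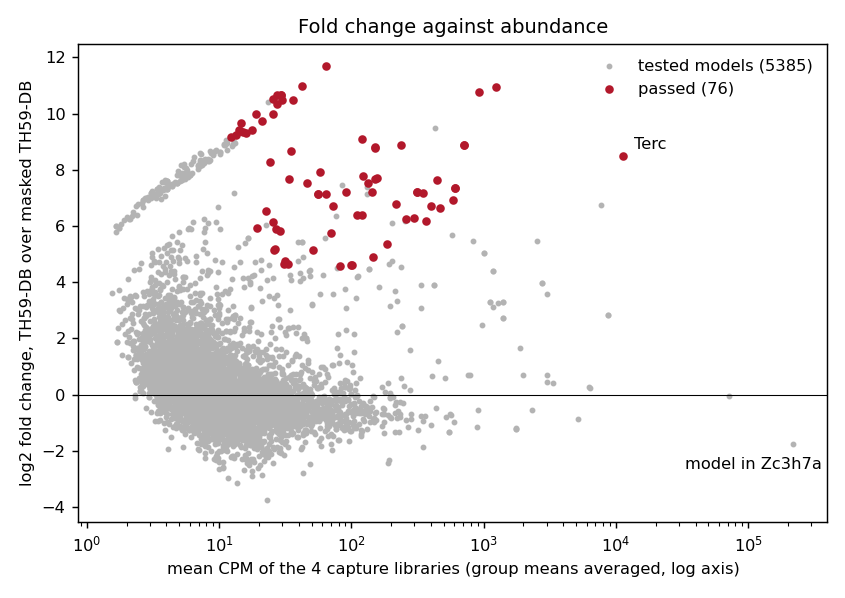
Log2 fold change of TH59-DB over masked TH59-DB (vertical axis) against the mean CPM of the capture libraries (horizontal, log axis) for the 5385 tested models. The 76 that passed are red and lie at log2 fold changes from 4.56 to 11.71. The oblique line of points at the upper left holds models with 0 masked reads, whose fitted fold change depends on the prior count.

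The median log2 fold change was 7.44 over the passing loci and 0.30 over all tested models. At 17 of the 64 loci both masked libraries had 0 reads. For these the fold is a nominal lower bound, computed as if each masked library had 3 reads. It takes the mean CPM of TH59-DB without the scaling of the fit and leaves out the spread between libraries. With these 17 loci at that bound and the others at their fitted value, the median of the passing loci was 6.27. A further 11 loci had reads in 1 masked library and 36 had reads in both. With 2 libraries a group an exact permutation test of a single locus cannot go below p = 0.333, so the calls rest on a spread shared across all models, with a biological coefficient of variation of 0.702.

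Leaving out TH59-DB 2 had the greatest effect on the calls: 24 of the 64 loci then still passed. It was 57 without TH59-DB 1, 54 when masked TH59-DB 1 was dropped and 62 when masked TH59-DB 2 was. Without either input library all 64 passed. In total 18 loci passed in all 6 of these fits, and they are named below.

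Terc, the telomerase RNA, was higher in TH59-DB than in masked TH59-DB (chromosome 3, 96414374 to 96414859, mm10). It had 31330 CPM in TH59-DB 1 and 13957 CPM in TH59-DB 2, from 56510 and 36137 reads. In the masked libraries it had 77.1 and 47.7 CPM, and in the input 33.5 and 23.8 CPM. The TH59-DB libraries thus stood far apart from the other 4. The log2 fold change was 8.50 (SE 1.44, edgeR adjusted p = 0.0248). The call ended when masked TH59-DB 1 was left out (adjusted p = 0.0901) or masked TH59-DB 2 (adjusted p = 0.0519), in a range of 1.97e-25 to 0.0901 over 15 alternatives.

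The protein partners of telomeres were far less covered. Of 19 listed telomerase and shelterin genes, 5 had a model and 4 could be tested, and Terc was the 1 that passed. Nhp2, a protein of the telomerase particle, had a log2 difference of -0.02 (SE 0.65, adjusted p = 0.997 in edgeR). Terf2, a shelterin protein that binds the double-stranded repeat, had 24 and 5 reads in TH59-DB and 68 and 1 in masked TH59-DB. Pot1b, which binds the single-stranded end, had 17 and 1 against 0 and 13. In Terf2 and Pot1b the libraries of each group lay so far apart that the groups overlapped. The 9 tested genes of telomere upkeep and DNA repair had a median log2 fold change of 0.07, and none passed, where 1.41% of all tested models did. None lay above in both libraries and 1, Brca1, lay below, where 16.1% and 14.7% of all tested models lay above and below.

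At the distal end of the Y chromosome model, 6 loci near the outermost gene or model, called the distal mark here, were higher in TH59-DB. The 5 that lie between positions 90810738 and 90815149 follow each other over less than 5 kb, in no RefSeq gene span. The largest by read share, at 90813172 to 90815149, had 4195 and 3497 reads in TH59-DB, 2 and 4 with the masked probe, and 9 and 45 in the input. Its log2 fold change was 10.76 (SE 1.30, edgeR adjusted p = 0.0143). An overlapping model of 2268 bases, the longest that passed, extends it to 90821200. This locus passed in all 6 leave-outs, as did the loci starting at 90812281, 90811914, 90811027 and 90734535.

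Their neighbours showed the same order of groups. The locus at 90812281 to 90812527 had 443 and 512 CPM in TH59-DB and 0.507 and 1.92 CPM in masked TH59-DB. The locus at 90811914 to 90812175 had 289 and 316 CPM against 1.01 and 0.641 CPM. The ratio of TH59-DB 2 to TH59-DB 1 was 1.16 and 1.10 at these loci. The remaining end locus of the 5, at 90810738, had 112 and 131 reads in TH59-DB and 0 and 7 in masked TH59-DB, and the locus at 90734535 had 372 and 719 against 0 and 3. At 90811027 the masked libraries had 0 reads, and TH59-DB, with 158 and 443 reads, was at least 104-fold higher.

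The Y chromosome held 7 passing loci of 32 tested (21.9%), where 64 of all 5279 tested loci passed (1.21%). The seventh lay at the other end, at 259836 to 260046, with 54 and 72 reads in TH59-DB and 0 in both masked libraries, at least 23.3-fold. In no passing Y locus did both masked libraries exceed both input libraries, where they did at 15.4% of all tested loci. In 2 passing Y loci both masked libraries lay below both input libraries. Sequence placed on the Y chromosome can have near-identical copies on Y or on other chromosomes. How reads with several matches were counted is not given in the sources used here. Reads at these loci may therefore belong to copies elsewhere, and the share of passing loci cannot be assigned to the Y chromosome alone.

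On the other chromosomes, 7 of 154 tested loci within 1 Mb of a distal mark passed (4.55%), beside the same 1.21% of all tested loci. Farther from the marks and off the Y chromosome, loci in no gene span passed at 5.44% and loci in gene spans at 0.616%. Loci with hardly any masked or input reads entered the test only where both TH59-DB libraries covered them. These shares, and that of the Y chromosome, therefore lean toward passing and were not tested against each other. The 7 loci near a mark lay on chromosomes 2, 7, 11, 13, 16 and 17, the last with 2. At 5 of them both masked libraries had 0 reads. The outermost locus of chromosome 17 (94886457 to 94886924) had 97 and 44 reads in TH59-DB, and that of chromosome 11 (121981510 to 121982546) had 72 and 55, with 0 reads in all 4 other libraries at both. They were at least 28.5-fold and at least 24.6-fold higher. The outermost locus of chromosome 7 had 22 and 121 reads and a locus 1.15 kb from the mark of chromosome 13 had 85 and 44, again with 0 in masked and input. Chromosome 2 had 97 and 170 reads at 181870889 to 181872372, 141 kb from its mark, and 0 in the masked libraries. These 5 end loci had few reads, and each lost its call when TH59-DB 2 was left out, 3 of them also without TH59-DB 1.

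A pair of annotated genes was among the chromosome-end loci. B230307C23Rik, a protein-coding gene 97.2 kb from the distal mark of chromosome 16, had 133 and 423 CPM in TH59-DB, 14.7 and 10.6 CPM with the masked probe, and 2.01 and 6.66 CPM in the input. Its log2 fold change was 4.90 (SE 1.03, edgeR adjusted p = 0.0479), and the call ended when masked TH59-DB 1 (adjusted p = 0.0568), masked TH59-DB 2 (adjusted p = 0.0562) or TH59-DB 2 (adjusted p = 0.244) was left out. Gm1976, a long noncoding RNA 52.1 kb from the distal mark of chromosome 17, had 54 and 231 reads in TH59-DB and 3 and 15 in masked TH59-DB (log2 fold change 4.77, SE 0.99, edgeR adjusted p = 0.0479, and 0.576 without TH59-DB 2). The passing model covers the start of this gene. Its promoter window, 250 bases before to 50 after the annotated start, is shown because captured RNA lay across that start (RefSeq, GRCm38.p6, chr17:94834750-94835049, minus strand, written 5′ to 3′, with the 73 bases inside the model in capitals).
Gm1976: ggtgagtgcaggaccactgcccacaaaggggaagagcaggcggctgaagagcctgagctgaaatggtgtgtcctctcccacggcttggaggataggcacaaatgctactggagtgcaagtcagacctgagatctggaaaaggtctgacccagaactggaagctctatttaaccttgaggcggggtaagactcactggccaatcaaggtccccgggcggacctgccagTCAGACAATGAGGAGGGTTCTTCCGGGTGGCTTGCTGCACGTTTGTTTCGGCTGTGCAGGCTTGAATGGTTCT

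A locus at the very end of chromosome 2 had many reads and did not pass. The model at 182012702 to 182013229, the outermost of its chromosome, had 7357 and 68895 reads in TH59-DB, 471 and 514 with the masked probe, and 4 and 5 in the input. Both captures were thus above the input, and the TH59-DB libraries lay far apart, at 4079 and 26610 CPM. Its log2 fold change of 6.75 had an SE of 1.58 and an edgeR adjusted p of 0.0704, which ran from 2.62e-09 to 0.181 over 15 alternatives.

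Whole stretches near chromosome ends lay on the TH59-DB side. Both TH59-DB libraries exceeded both masked libraries in CPM in 867 of the 5385 tested models (16.1%), both lay below in 791 (14.7%), and in 3727 the groups overlapped. With a margin of at least 2-fold the counts were 536 (9.95%) and 146 (2.71%). Loci were then counted in 1 Mb bins, a division made after the data were seen and given without a test. Of 348 bins with at least 5 tested loci, 6 had TH59-DB above at 80% or more of their loci, where the median bin had 10.0% and 146 bins had none. Because loci with hardly any masked or input reads entered the test only where both TH59-DB libraries covered them, the tested loci lean toward higher values.

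Of these 6 bins, 4 were the last bins of their chromosomes. All 12 tested loci at the end of chromosome 17 and all 6 at the end of chromosome 9 lay above, as did 21 of 23 at the end of chromosome 16 and 6 of 7 at the end of chromosome 8. The next bin in order was the end of the Y chromosome, with 17 of 23 (73.9%). None of the loci in these end bins lay below in both libraries. Other chromosome ends differed from this: of the 14 bins whose last locus lay within 1 Mb of a mark, chromosome M and an unplaced contig included, 4 had no locus above. The median of the 14 was 34.1%, against 9.31% of the remaining bins.

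**Figure D2:**
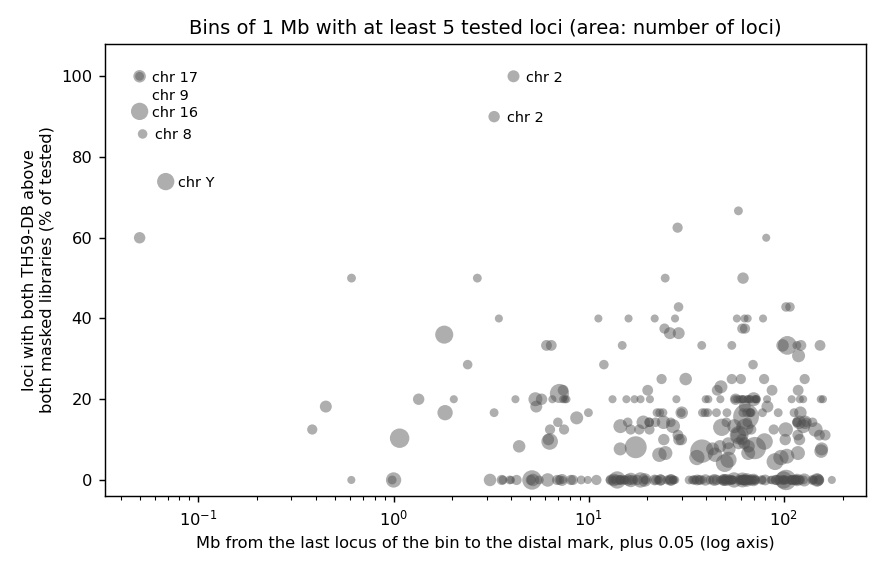
Each circle is a 1 Mb bin with at least 5 tested loci on a numbered or sex chromosome, with its distance from the distal mark across (log axis, 0.05 Mb added) and the share of its loci above in both TH59-DB libraries upward. Circle area grows with the number of loci, and the circles of chromosomes 17 and 9 coincide at 100%. The 6 bins at or above 80% and the Y chromosome bin at 73.9% are named.

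The other 2 of the 6 bins adjoin each other on distal chromosome 2, between 3.23 and 4.07 Mb from the mark by their last loci. They overlap a cluster of genes for KRAB-type zinc finger proteins, DNA-binding proteins of which many repress transposable elements. The cluster was singled out after its values were seen. From 175695366 to 178042104 it had 26 models, of which 22 could be tested. All 22 had a positive fold change, 21 lay above in both TH59-DB libraries, and 2 passed, in Gm14325 and Gm14326. Over all tested models 16.1% lay above and 1.41% passed. The bins that led to the cluster were picked for their share above, so the count above largely restates that choice. The median log2 fold change was 4.61, and 3.08 with the 7 models without masked reads at their bound.

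Summed over the 26 models, the cluster had 432 and 908 CPM in TH59-DB. It had 58.9 and 163 CPM in masked TH59-DB, with 34.5 and 87.9 CPM in the input. Both TH59-DB libraries were thus above both masked libraries, and number 2 was the higher library in each of the 3 groups. Gm14325 (177829550 to 177830066) had 34 and 147 reads in TH59-DB, 0 in masked TH59-DB, with 4 and 5 in the input, at least 30.5-fold over the masked libraries (edgeR adjusted p = 0.0248). Gm14326 (177945061 to 177945796) had 37 and 143 reads against 0 and 5 (log2 fold change 5.93, SE 1.24, adjusted p = 0.0479). Both lost the call without TH59-DB 2 (adjusted p = 0.244 and 0.430).

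Zfp971 and Zfp970 pointed the same way without passing. The 4-exon model of Zfp971 had 96 and 289 reads in TH59-DB and 0 and 25 in masked TH59-DB (log2 fold change 4.92, SE 1.23, edgeR adjusted p = 0.0857). The 4 models of Zfp970 had log2 values from 3.80 to 8.21 with adjusted p from 0.151 to 0.381. Genes of this cluster are near-identical copies, so reads may have been divided among them or counted at the wrong copy, and single genes here are uncertain.

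Most promoter windows of the cluster hold a short match to the telomere hexamer. TTAGGG or its reverse complement CCCTAA, searched on both strands, occurred in 33 of 49 windows of the cluster (67.3%) and in 3483 of all 32851 windows (10.6%). The 33 windows belong to 29 of 41 RefSeq genes. The genes are copies with shared promoter sequence, so the 33 windows are not separate occurrences. Promoters of other zinc finger genes were not set beside them. The windows of B230307C23Rik and Gm1976, the annotated genes that passed near chromosome ends, held no such hexamer. Windows were counted over a stretch that begins before the first model and takes in Gm14393. The windows of Gm14325, Zfp971 and Gm14393 are shown with the hexamer in capitals because they show its place in the shared promoter sequence and, in Gm14393, a tandem pair, which occurred in windows of 3 genes in the whole table. They are from RefSeq, GRCm38.p6, on the strand of the gene, at chr2:177840287-177840586, chr2:178023034-178023333 and chr2:175067720-175068019.
Gm14325: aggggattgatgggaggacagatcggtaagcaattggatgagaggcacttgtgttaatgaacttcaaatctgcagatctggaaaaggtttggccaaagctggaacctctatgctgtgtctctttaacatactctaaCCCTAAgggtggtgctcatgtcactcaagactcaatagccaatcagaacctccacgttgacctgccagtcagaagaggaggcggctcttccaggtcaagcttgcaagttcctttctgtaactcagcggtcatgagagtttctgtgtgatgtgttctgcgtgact
Zfp971: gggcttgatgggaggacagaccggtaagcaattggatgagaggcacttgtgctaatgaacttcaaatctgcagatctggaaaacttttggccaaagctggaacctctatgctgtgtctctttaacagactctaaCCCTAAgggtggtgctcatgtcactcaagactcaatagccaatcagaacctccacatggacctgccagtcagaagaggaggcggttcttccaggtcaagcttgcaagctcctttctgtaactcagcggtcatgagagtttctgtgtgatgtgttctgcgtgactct
Gm14393: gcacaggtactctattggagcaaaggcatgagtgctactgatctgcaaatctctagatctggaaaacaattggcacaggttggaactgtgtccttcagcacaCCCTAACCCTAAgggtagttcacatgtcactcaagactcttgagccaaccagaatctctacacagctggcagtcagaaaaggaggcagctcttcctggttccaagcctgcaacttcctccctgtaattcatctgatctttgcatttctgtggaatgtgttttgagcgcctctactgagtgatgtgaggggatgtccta

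In these windows the first hexamer begins 114 bases before the start of Gm14325, 116 before that of Zfp971 and 148 before that of Gm14393. A match of letters is a description of the sequence and says nothing of whether the probe was there. The passing models of Gm14325 and Gm14326 lie outside these windows, and the Zfp971 model begins inside its own. Models lay in 6 genes, and Gm14393 was not among them.

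Away from the ends and the Y chromosome, 21 of 386 tested loci in no gene span passed (5.44%), against 29 of 4707 in gene spans (0.616%). Of those without a gene, 8 passed in all leave-outs: 30829532 on chromosome 16, 61716555 on chromosome 9, 74065915 on chromosome 14, 115737204 on chromosome 13, 69456736 on chromosome 1, 98662237 and 98664987 on chromosome 2 and 32629166 on chromosome 5, each given by its start. The locus on chromosome 16 at 30829532 to 30835720 had 384 and 6751 reads in TH59-DB, 6 and 20 with the masked probe, and 2 and 0 in the input, a log2 fold change of 8.89 (SE 1.76, edgeR adjusted p = 0.0388). The exons of its model cover only 117 bases of that span. TH59-DB 2 was 12.2-fold above TH59-DB 1 here, the widest gap among the passing loci, yet both were far above the masked libraries.

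Several of these loci had nearly no input reads and a low but repeated count in the masked libraries. On chromosome 1, the locus at 19122597 to 19176350 had 661 and 5097 reads in TH59-DB, 22 and 57 with the masked probe, and 1 and 0 in the input. On chromosome 9, that at 61716555 to 61722624 had 982 and 3396, then 30 and 27, then 1 and 0. On chromosome 14, that at 74065915 to 74073706 had 626 and 3206, then 23 and 29, then 1 and 0. The exons of these 3 models cover only 77, 151 and 51 bases of their spans. The order input, masked TH59-DB, TH59-DB held in every library at all 3 loci. The loci on chromosome 13 at 110602508 and 115737204, on chromosome 1 at 69456736 and on chromosome 2 at 178786797 had the same order, with 8 to 40 reads in the masked and 0 or 1 in the input libraries. Their models have 104, 84, 74 and 321 bases in exons.

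Another pair of loci had more input reads, most of them in input 2. Both lie on chromosome 2 within 3 kb of each other, at 98662237 to 98662982 and 98664987 to 98665224. The first had 471 and 554 reads in TH59-DB, 6 and 11 with the masked probe, and 39 and 363 in the input. The second had 295 and 512, then 4 and 3, then 4 and 42. Their log2 fold changes over the masked libraries were 6.40 (SE 1.06) and 7.22 (SE 1.17), with edgeR adjusted p of 0.0230 and 0.0228, and they passed in all leave-outs. The ratio of TH59-DB 2 to TH59-DB 1 was 0.819 and 1.21.

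The passing model with the most exons lay in no gene span either. It joins 5 exons over 94140 bases of chromosome 5, from 32629166 to 32723305, and had 198 and 94 reads in TH59-DB against 0 in both masked libraries, at least 58.8-fold. It was one of 15 passing loci with less CPM in TH59-DB 2 than in TH59-DB 1.

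The other 10 loci in no gene span had 35 to 159 reads in TH59-DB 1 and 0 to 11 in either masked library. On chromosome 5, that at 106176633 had 159 and 1145 reads in TH59-DB against 2 and 10 with the masked probe. On chromosome 9, that at 90302252 had 109 and 1108 against 4 and 4, and on chromosome 14, that at 58658587 had 107 and 971 against 8 and 11. At these 3 loci TH59-DB 2 was 5.02-fold to 7.08-fold above TH59-DB 1. On chromosome X, that at 114458513 had 69 and 229 reads against 7 and 10, and on chromosome 13, that at 110744495 had 46 and 209 against 1 and 6. The loci at 63312582 on chromosome 16 and 90726543 on chromosome 4 had reads in 1 masked library, and those at 147236646 on chromosome 6, 90512709 on chromosome 9 and 141008907 on chromosome 4 had none, with TH59-DB at least 47.3-fold, 34.2-fold and 21.5-fold higher. All 10 lost the call without TH59-DB 2.

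Passing loci inside gene spans were spread over 15 chromosomes. A model inside a span need not belong to the transcript of that gene, and most were single short blocks. In the span of Esr1, the oestrogen receptor alpha gene, a block of 652 bases had 492 and 1278 CPM in TH59-DB, 7.61 and 4.16 CPM with the masked probe, and 0.335 and 0 CPM in the input (log2 fold change 7.63, SE 1.30, edgeR adjusted p = 0.0252). In that of the long noncoding RNA gene 6030407O03Rik the reads were 988 and 4865 in TH59-DB and 18 and 39 in masked TH59-DB, with 2 and 0 in the input. In that of 2210408I21Rik they were 634 and 2789 against 24 and 49, with 0 in the input.

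Esr1, Gm35315, Xkrx, Chl1 and Nedd4l were the gene spans whose loci passed in all 6 leave-outs. Gm35315 had 383 and 474 CPM in TH59-DB and 4.06 and 5.76 CPM in masked TH59-DB, with no input read (log2 fold change 6.78, SE 0.94, edgeR adjusted p = 0.0172). Xkrx, of the family of XK-related membrane proteins, had 308 and 1161 reads against 3 and 8. Chl1, a neural cell adhesion molecule, had 209 and 439 reads against 0 and 11, with 5 and 13 in the input. Nedd4l, a ubiquitin ligase, had 147 and 229 reads against 0 in both masked libraries, at least 68.4-fold. The ratio of TH59-DB 2 to TH59-DB 1 was 1.24 in Gm35315 and 1.09 in Nedd4l, closer to 1 than in Xkrx, at 2.63.

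**Figure D3:**
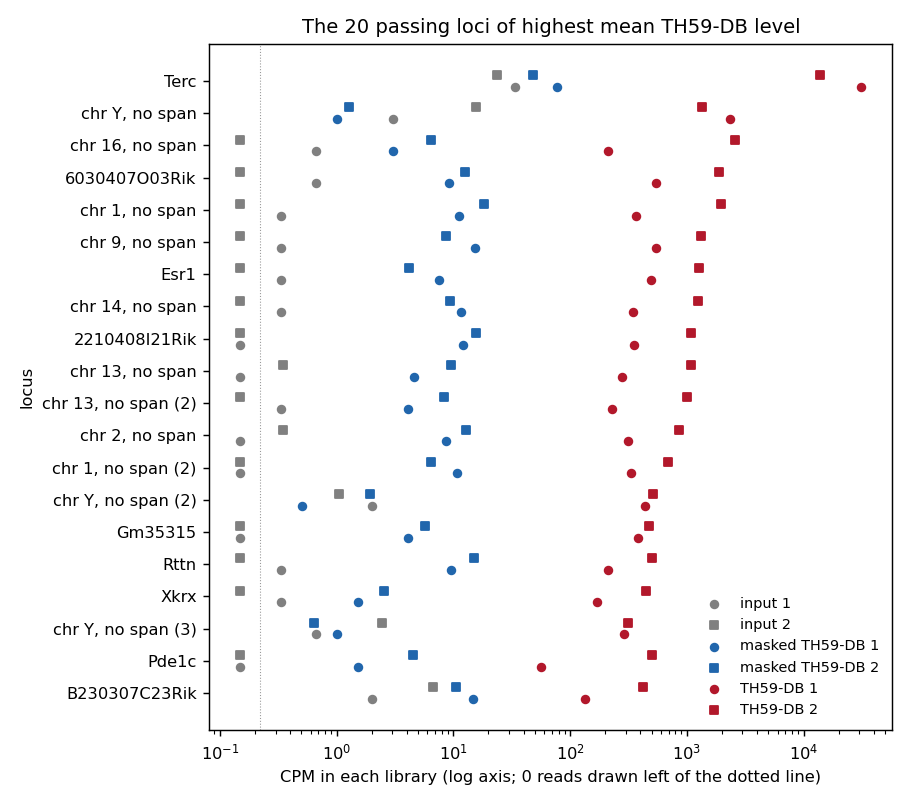
CPM in each of the 6 libraries (log axis) for the 20 passing loci with the highest mean CPM in TH59-DB, from the highest at the top. Circles are libraries numbered 1 and squares libraries numbered 2. In all 20 loci both TH59-DB libraries (red) lie right of both masked libraries (blue) and both input libraries (grey), and from chromosome 16 downward the input is at or near 0 for most.

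Other spans also had reads in both masked libraries. Rttn, a centriole protein gene, had 381 and 1310 reads against 19 and 47, a log2 fold change of 5.35. Frmd4a, a scaffold protein of cell polarity, had 156 and 578 against 12 and 40, the lowest passing log2 fold change, 4.56. The long noncoding RNA 4732471J01Rik had 308 and 533 against 18 and 31, and Tenm3, a teneurin, 129 and 120 against 7 and 5. In these last 2 the ratio of TH59-DB 2 to TH59-DB 1 was 1.21 and 0.648. Pde1c, a cyclic nucleotide phosphodiesterase, and the noncoding 4930558G05Rik, Kif26b, Pxylp1 and Sipa1l1 had log2 fold changes from 5.17 to 7.20.

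Further spans had 0 reads in at least 1 masked library. Map2k6, a kinase upstream of p38, Ror2, a receptor for Wnt5a, Immp2l, a mitochondrial peptidase, Nol4l and Kcnh1, a potassium channel, had 1 to 8 reads in masked TH59-DB 2 and 0 in masked TH59-DB 1. Their TH59-DB reads ran from 31 to 549. Gm30751, Bod1, Bbip1 and Septin11 had 0 in both, and TH59-DB was at least 44.4-fold, 41.2-fold and 22.9-fold higher at the first 3. Septin11 had 45 and 64 reads in TH59-DB, the lowest of the passing loci by mean CPM.

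Input reads were rare at the passing loci as a group. At 46 of the 64 (71.9%) the input libraries held 3 reads or fewer in sum, where 7.46% of all tested loci did. At 22 of the 64 the input libraries held none. Loci with hardly any input or masked reads entered the test only where both TH59-DB libraries covered them. All 64 lay above both input libraries in both TH59-DB libraries. Masked TH59-DB is shared by this comparison and the comparison with the input. In the latter, both masked libraries lay above both input libraries at 30 passing loci (46.9%), below at 6, and overlapped at 28. Over all tested loci both masked libraries lay above both input libraries at 15.4%.

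TH59-DB 2 was above TH59-DB 1 at 49 of the 64 loci. The median ratio of TH59-DB 2 to TH59-DB 1 was 2.43 at the passing loci, from 0.316 to 12.2, and 0.488 over all tested loci. The same-numbered pairs draw on the libraries that picked these loci, so high ratios at the passing loci follow from that choice. The median log2 ratio of TH59-DB to masked TH59-DB, with 0.5 CPM added, was 5.66 in pair 1 and 6.30 in pair 2 at the passing loci, and 1.96 and -1.13 over the tested loci. Pair 1 was thus shifted up for tested models in general, which was not so in pair 2.

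**Figure D4:**
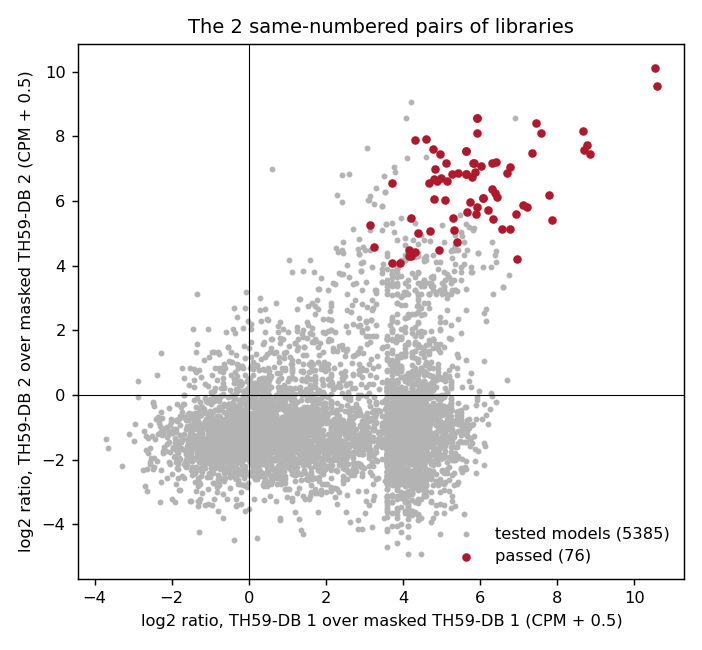
Log2 ratio of TH59-DB 1 over masked TH59-DB 1 (horizontal) and of TH59-DB 2 over masked TH59-DB 2 (vertical), with 0.5 CPM added, for the 5385 tested models. The 76 that passed (red) lie at or above 3.13 in pair 1 and 4.07 in pair 2, and the grey cloud is centred right of 0 in pair 1 and below 0 in pair 2.

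Several small noncoding RNAs lay above the masked libraries without passing. Rpph1, the RNA of ribonuclease P, had 34413 and 29349 reads in TH59-DB, 4576 and 7323 with the masked probe, and 6540 and 9555 in the input, a log2 fold change of 2.83 (SE 1.05, edgeR adjusted p = 0.314). Rn7sk, which holds back the elongation factor P-TEFb, had 5077 and 6771 reads against 1507 and 4239 (log2 1.67, adjusted p = 0.679). Of the 6 tested small polymerase III RNAs, 4 lay above in both libraries, where 16.1% of all tested models did, Rny3 and Vaultrc5 overlapped, the median log2 fold change was 1.64, and none passed.

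The scaRNAs guide modification of spliceosomal RNAs in Cajal bodies. All 6 tested scaRNAs had a positive fold change, 5 lay above in both libraries (16.1% of all tested models did), and none passed. The median was 2.09. Scarna13 had 486 and 1094 reads in TH59-DB and 184 and 290 in masked TH59-DB (log2 2.24, SE 0.78, edgeR adjusted p = 0.272). Scarna6 had 24 and 156 against 7 and 23 (log2 3.34, adjusted p = 0.163). Rnu11 and Rnu12 of the minor spliceosome both lay above, at log2 2.40 and 1.35, and 20 snoRNAs had a median of 0.31 with 5 above and 1 below, where 16.1% and 14.7% of all tested models lay above and below.

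**Figure D5:**
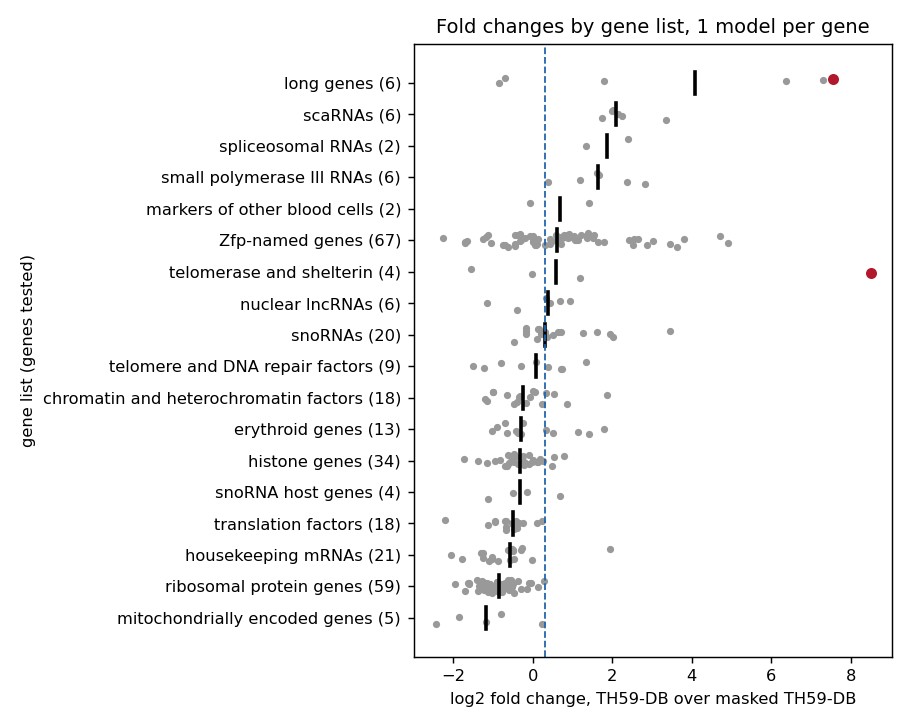
Log2 fold change of TH59-DB over masked TH59-DB for the tested genes of each list, 1 model per gene, with the number tested in brackets. Black bars are list medians, the dashed line is the median of all tested models at 0.30, and red points passed: Terc and Immp2l. Ribosomal protein and mitochondrial genes lie lowest, at medians of -0.86 and -1.17.

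Nuclear long noncoding RNAs as a list lay near the middle of all models. Malat1, a nuclear speckle RNA, had 6993 and 8159 reads in TH59-DB and 4397 and 13043 in masked TH59-DB, a log2 difference of 0.43 (SE 0.90, edgeR adjusted p = 0.972). The groups overlapped, and the sign turned when the 2 largest models were dropped from the library totals and when TH59-DB 2 was dropped. None of the 6 tested passed, and the median was 0.38. Of 67 tested Zfp-named genes 12 lay above and 8 below, near the shares of 16.1% and 14.7% of all tested models, and none passed, with a median of 0.62.

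Long genes form a list of their own because most of their sequence is intronic. Of 30 listed genes 14 had a model and 6 could be tested. Immp2l passed, and Lrp1b, with 43 and 720 reads in TH59-DB against 7 and 6, did not (log2 6.37, SE 1.44, edgeR adjusted p = 0.0704). Gphn, with the most reads of the 6, had 1271 and 439 against 1311 and 2218 (log2 -0.71), and Mbnl1, with 58 and 60 against 88 and 230 (log2 -0.85), lay below in both libraries. The median was 4.08, or 2.24 with Erbb4, which had no masked read, at its bound. The 8 untested genes had 10 to 24 reads in TH59-DB 1, 0 to 2 in TH59-DB 2 and 0 in both masked libraries, so the tested ones are those that TH59-DB 2 also covered.

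Messenger RNAs of abundant proteins lay below the median of all models, and none passed as lower. Of 59 ribosomal protein genes 34 lay below both masked libraries and none above, where 14.7% of tested models lay below. Rps10 had 12 and 48 reads in TH59-DB against 94 and 294 with the masked probe (log2 -1.95). Rplp2 had 857 and 705 reads in TH59-DB and 1495 and 2695 in masked TH59-DB (log2 -0.98, edgeR adjusted p = 0.869). Of 18 translation factors 6 lay below (median -0.51), of 21 housekeeping genes 9 (median -0.57) and of 34 histone genes 8 (median -0.31). Of 5 mitochondrial genes 3 lay below, with a median of -1.17. The direction of ND1, at 0.24, turned in 3 alternatives.

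Erythroid genes had a median of -0.29 over 13 tested, with 4 below, 1 above and none passing, beside 14.7% below and 16.1% above over all tested models. Zfpm1, a cofactor of Gata1, had 229 and 182 reads in TH59-DB and 321 and 781 in masked TH59-DB, and Car1, a carbonic anhydrase of red cells, 61 and 124 against 120 and 535. Chromatin factors had a median of -0.25, with 5 of 18 below and none above (the same background), and 4 snoRNA host genes a median of -0.31 with 2 below. The 2 markers of other blood cells, Laptm5 and Itga2b, overlapped between groups.

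The models of smallest p on the lower side lay in Ybx3, Tet3, Rasa1, Akt1, Rpia, Gpi1, Minpp1, Mrpl12, Cox4i1 and Kdm3a. In Ybx3, a cold-shock domain protein that binds nucleic acids, TH59-DB had 7.21 and 3.09 CPM and masked TH59-DB 49.7 and 24.7 CPM. Its log2 difference was -2.87 (SE 0.76, edgeR adjusted p = 0.105). In Tet3, which oxidises 5-methylcytosine, TH59-DB had 9.98 and 5.41 CPM and masked TH59-DB 50.2 and 37.5 CPM (log2 -2.44, adjusted p = 0.144). In all 10 both TH59-DB libraries lay below both masked libraries, and none passed.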

How the data were processed

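The values are whole-number read counts per assembled transcript model, deposited by the authors beside FPKM values, which per the file headers share the models' length. The submitters' processing notes name cutadapt, HISAT2, Cufflinks, featureCounts and mm10, without versions or roles. FPKM served only to recover library totals, since a count of 0 carries a non-zero FPKM in some files; what the totals count, the strand setting and the handling of reads with several matches are not given in the sources used here. Files were joined on all exons (7695 models) or on chromosome, first start and length (264). The first and second files disagree on strand for 6027 models, so sense and antisense were not told apart.

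Genes come from RefSeq spans of GRCm38.p6: at least 50% of a model's bases in the span, or, for genes of at most 1000 bases, at least 80% of the gene covered by a single-exon model of at most 8 times its length. Counts were fitted with edgeR 4.0.16 in R 4.3.3. The fit took all 6 libraries, a group term, filterByExpr, TMM and robust glmQLFit. Its test was a 2-sided quasi-likelihood F-test with Benjamini-Hochberg over 5385 models and threshold 0.05. The code was tried on simulated data whose spread was set well below the biological coefficient of variation of 0.702 found here. Those simulated data therefore do not measure its error rate on these libraries. DESeq2 1.42.0 was an alternative. Levels are CPM of the library total, with 1 model shown per locus, the one of lowest p. Intervals are not given for reads without molecular identifiers, whose counting error understates their spread.

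Members and gene lists were chosen with earlier results of these data known. Names were drawn from the 30 passing loci of highest TH59-DB level, passing loci with reads in both masked libraries, the 10 smallest p on the lower side, the extremes and most abundant of each list, the 5 largest models per library, the 5 highest that were at least 4-fold up in both pairs without passing, and the longest and most-exon passing models; not every locus this rule chooses is described here, and other passing loci and the chromosome 2 cluster were named after their values were seen. Same-numbered libraries did not deviate together (correlation -0.00786 between TH59-DB and masked TH59-DB), so the fits are unpaired. Alternatives were other scalings, filters, library sets, tools, a replicate block and each library left out.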

Additional observations from a re-analysis of the deposited data

How the results depend on the processing

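Against 76 models passing as higher, the count was 167 with DESeq2 size factors in edgeR, 204 with no filter on low counts, 129 with the 4 capture libraries alone, 155 with library sizes summed over the models, 132 with totals without the 2 largest models, 50 with 1 model per locus and 266 with DESeq2. These fits held 76, 76, 76, 76, 76, 50 and 70 of the 76 models. Against 0 passing as lower, the count was 2 with no filter, 28 with totals without the 2 largest models and 1 with DESeq2. The replicate block gave 186 higher and 5 lower, with all 76 models among the former. Nothing says whether the numbers pair libraries, though the number 1 and number 2 files differ in their strand entries. Leaving out 1 library at a time gave 32 (without TH59-DB 2) to 1479 (without masked TH59-DB 2) higher and 0 to 241 lower, the lone library of a group being assumed to vary like the others; 310 were higher without masked TH59-DB 1, 136 without TH59-DB 1, and 147 and 145 without input 1 and input 2. Models above in both TH59-DB libraries numbered 1340 with TMM-scaled CPM (723 below), 536 with a 2-fold margin and 1738 over all deposited models, against 867. With an alternative chosen after seeing the data, only models with a strand in the second files, 53 were higher; bins at 80% or more, also chosen so, numbered 4 to 9 against 6. The median of all models moved from 0.30 to 0.51 with DESeq2 size factors, 0.48 with the block and -0.09 without the 2 largest models, so small differences are relative to it.

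Of the named models, 18 changed sign in some fit, and all 18 had missed the threshold. With 1 library left out the log2 value ran from -7.30 to 0.48 for Wrn, -3.03 to 4.32 for Terf2, -3.50 to 0.21 for Eif4a1, -2.47 to 0.40 for Suz12, -0.19 to 2.24 for Tnks2, -0.29 to 6.76 for Snhg12, -0.18 to 0.46 for Eif3b, -0.60 to 0.12 for the chromosome 17 model at 39842884, -0.75 to 5.79 for Rps14, -2.15 to 1.85 for ND1, -2.19 to 1.88 for its overlapping model, -1.01 to 1.94 for Laptm5, -1.49 to 0.44 for H2ac20, -0.41 to 0.68 for Rny3, -1.39 to 0.055 for Hsp90ab1, -0.12 to 0.86 for Malat1 and -0.38 to 2.20 for H4f16. Without the 2 largest models it was -0.25 for Malat1, -0.28 for Eif3b, -0.0037 for Snord15a, -0.15 for Rps14, -0.79 for ND1, -0.78 for its overlapping model and -0.12 for Rny3. Laptm5 was 0.21 with DESeq2 size factors, 0.041 with the capture libraries alone, 0.11 with summed library sizes, 0.39 with the block and 0.22 with DESeq2, and the chromosome 17 model was 0.037 with DESeq2 size factors and with DESeq2. The 64 passing loci kept their direction in every fit that tested them. The cause of the changes was not tested.

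Depth limits the low loci: a read is 0.320 to 0.554 CPM, so a difference of a few reads was not detectable.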
